A study of Homo sapiens with 6 samples.

Results

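The sestrins and the regulators that tie the kinase complex mTORC1 to nutrients are described here as a set of 10 genes, taken by gene symbol from a deposited table of 58735 genes. They are SESN1, SESN2, SESN3, CASTOR1, RRAGC, RRAGD, FLCN, TSC1, DDIT4 and DEPTOR, and each symbol matched 1 row. The cells were VCaP, a human prostate cancer line with the TMPRSS2-ERG fusion, stably infected with a hairpin RNA (shRNA) that targets NEDD9 (shNEDD9, 3 libraries) or with a non-targeting shRNA (shNTC, 3 libraries). Both kinds of cells grew in medium with foetal bovine serum, and the study called the 3 libraries of a group biological triplicates. Neither the hairpin sequence and number of hairpins nor whether a line came from 1 clone is given in the sources used here, so an effect of NEDD9 loss and an effect of the hairpin or the line cannot be told apart.

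mTORC1 is a kinase complex that promotes protein synthesis and growth when amino acids, energy and growth factors are at hand. Amino acids act through the Rag GTPases on the lysosome, which recruit the complex. Sestrins and CASTOR1 bind GATOR2 and hold the Rag pathway down when leucine or arginine is scarce, whereas FLCN switches RRAGC and RRAGD into their active form. Growth factor and stress signals act through the TSC complex, of which TSC1 is a subunit and DDIT4 a stress-induced activator, and DEPTOR binds and inhibits mTOR itself.

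Total counts per library were 5956486, 7806980 and 9902002 in shNEDD9 and 7492244, 3217276 and 6452350 in shNTC. Levels are given as CPM, the count over the TMM-scaled library total in the usual units, and a change was called at an adjusted p under 0.05 in edgeR's quasi-likelihood test over 13958 genes. NEDD9 itself had 137, 138 and 135 CPM in shNEDD9 and 361, 338 and 364 CPM in shNTC (log2 fold change -1.39, SE 0.04), so the targeted transcript was lower in every shNEDD9 library. Of 10 markers of luminal prostate cells and VCaP, all 10 were tested and called, 3 higher and 7 lower. Over all tested genes 71.4% were called, 35.5% higher and 35.9% lower. Of markers of other cell types, 5 endothelial genes summed to 1.61 to 2.34 CPM in shNEDD9 and 1.47 to 2.82 CPM in shNTC. CDH5 and CD3E were at 0 counts and PTPRC had 1 count over all 6 libraries. The 5 leukocyte genes summed to 5.69 to 6.63 CPM in shNEDD9 and 18.2 to 25.1 CPM in shNTC. LYZ among them had 1.34, 1.65 and 1.51 CPM in shNEDD9 and 15.1, 20.05 and 15.1 CPM in shNTC. The other tested leukocyte gene, CD14, was not lower, at 4.68 ± 0.40 CPM in shNEDD9 and 3.74 ± 0.85 CPM in shNTC, and was not called. The 6 fibroblast genes summed to 47.3 to 54.4 CPM in shNEDD9 and 26.3 to 33.5 CPM in shNTC, most of it LUM at 45.1 ± 3.17 CPM in shNEDD9 and 19.1 ± 0.57 CPM in shNTC. The other tested fibroblast gene, COL1A1, went the other way, at 4.62 ± 0.64 CPM in shNEDD9 and 7.21 ± 2.25 CPM in shNTC (log2 fold change -0.55, edgeR adjusted p = 0.0106, but 0.112 without shNTC replicate 2). COL1A2 and COL3A1, too low to test, averaged 0.35 and 0.19 CPM in shNEDD9 and 2.08 and 0.92 CPM in shNTC, with overlapping libraries. Their part in the results below was not tested.

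The set moved in both directions. SESN2 and DDIT4, a pair of stress-induced inhibitors of mTORC1, were 11.7-fold and 7.96-fold higher in shNEDD9, DEPTOR was 1.82-fold higher and SESN1 1.20-fold higher. SESN3, RRAGC, RRAGD, FLCN and TSC1 fell by 16.1% to 45.9%. All 9 genes that passed the count filter were called, 4 higher and 5 lower, where 71.4% of all tested genes were called, 35.5% higher and 35.9% lower. The groups did not overlap in any of these 9 genes, which was so for 71.8% of all tested genes. With so many genes called, the number of calls says nothing particular about the set. SESN2 ranked 16 and DDIT4 ranked 33 of 13958 genes by log2 fold change, and 2 of the 9 genes were at least 2-fold higher against 7.67% of all tested genes, and 0 were at least 2-fold lower, against 9.22%. The median log2 fold change was -0.25 for the 9 genes and 0.00 for all tested genes, and the median absolute value was 0.66 against 0.42. The members were chosen with earlier results of these data known, so these ranks, shares and medians only describe them. In these bulk libraries, fewer cells that express a gene and less of its RNA per cell cannot be told apart.

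**Figure D1:**
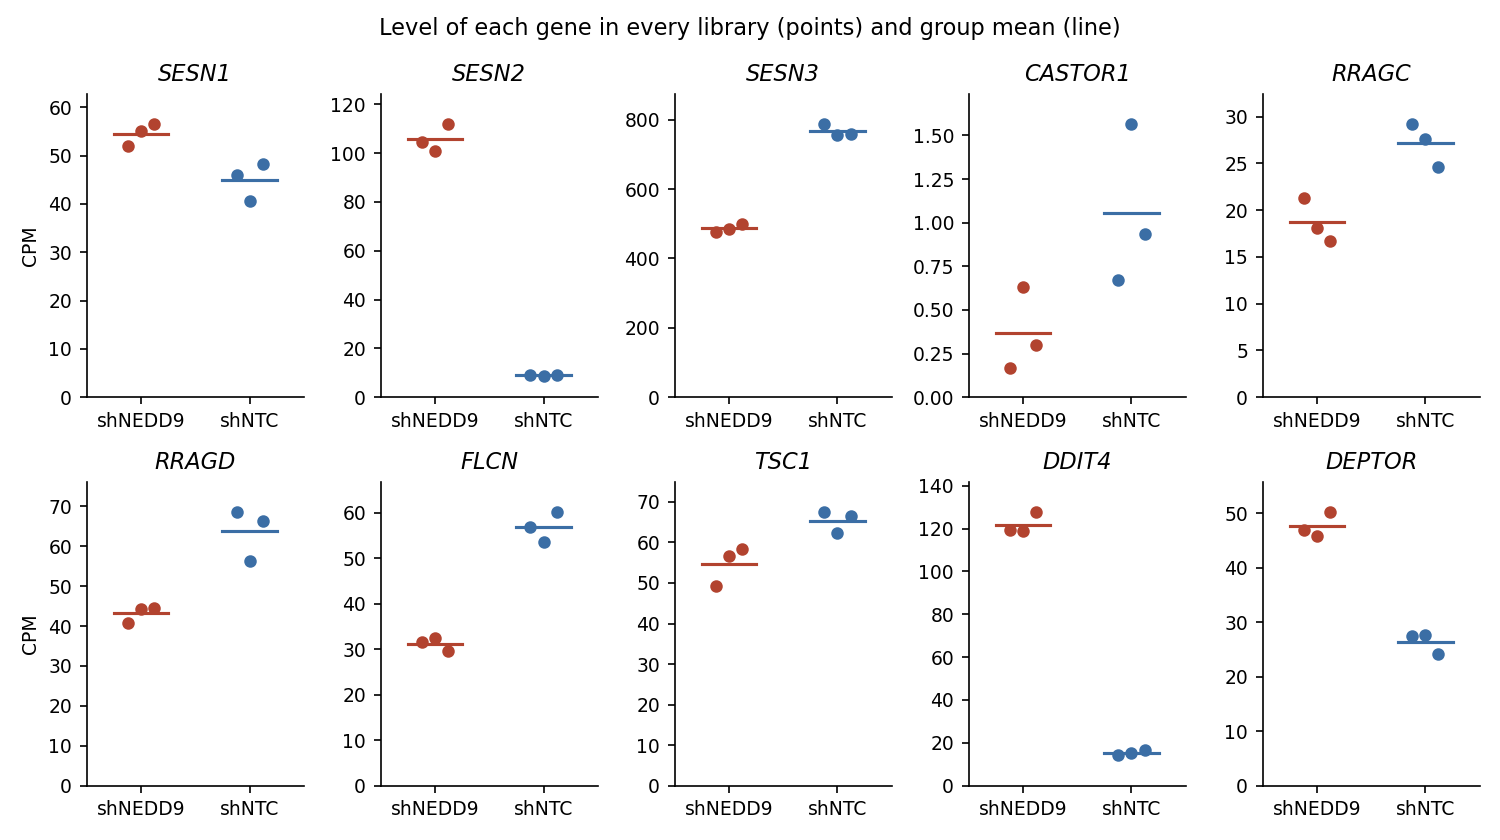
Level in CPM (vertical axis, from 0) of each of the 10 genes in the 3 shNEDD9 libraries (red, left) and the 3 shNTC libraries (blue, right), with the group mean as a line. SESN2 and DDIT4 stand far apart between the groups, and CASTOR1 is at most 1.57 CPM in every library.

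**Figure D2:**
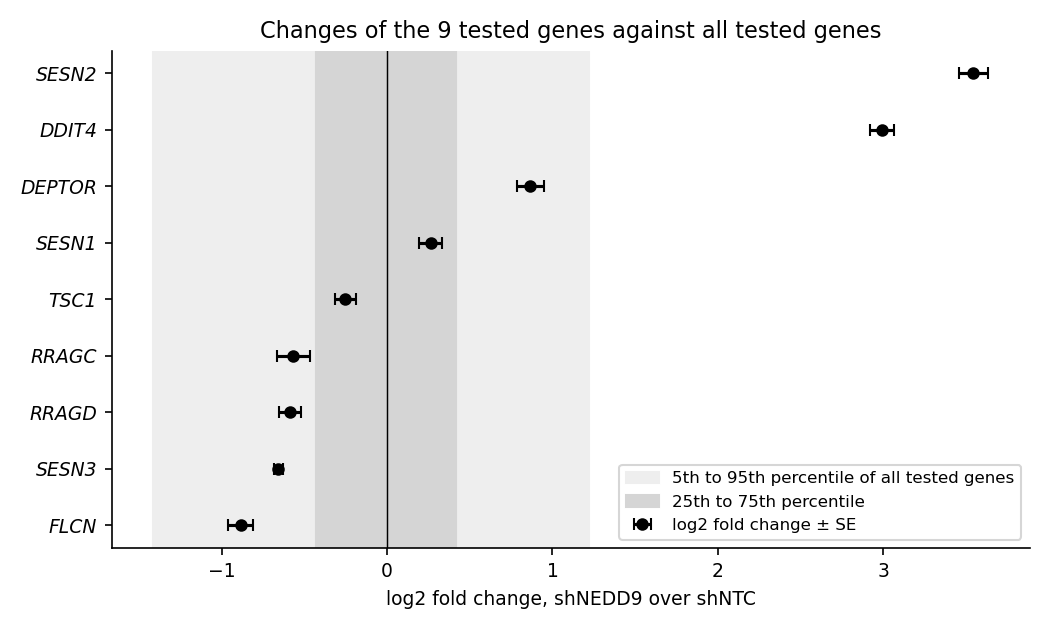
Log2 fold change of shNEDD9 over shNTC (horizontal axis) with its approximate standard error for the 9 tested genes, over the range of all 13958 tested genes in grey. SESN2 and DDIT4 lie beyond the 95th percentile of 1.22, and SESN1 and TSC1 lie within the middle range of -0.43 to 0.42.

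SESN2 (ENSG00000130766, GRCh38 chromosome 1, 28259527 to 28282491, plus strand) encodes a sestrin that binds leucine and keeps GATOR2 in check when leucine is lacking. It had 105, 101 and 112 CPM in the shNEDD9 libraries and 9.25, 8.77 and 9.05 CPM in the shNTC libraries. Every shNEDD9 library was thus far above every shNTC library, and the shNTC values rested on 69, 28 and 58 counts. The log2 fold change was 3.55 (SE 0.09, edgeR, Benjamini-Hochberg adjusted p below 1e-300).

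SESN3 (ENSG00000149212, chromosome 11, 95165513 to 95232541, minus strand), a paralog known as a target of FoxO transcription factors, went the other way. It had 477, 485 and 498 CPM in shNEDD9 and 788, 757 and 760.3 CPM in shNTC, the highest counts of the 10 genes and the least scatter, with a coefficient of variation of 2.22% and 2.24%. Its log2 fold change was -0.66 (SE 0.03, edgeR adjusted p = 9.45e-141). An antisense gene on the opposite strand, AP000787.1, shares 0.88% of its exon bases and had 301 counts over the shNEDD9 libraries and 202 over the shNTC libraries.

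SESN1 (ENSG00000080546, chromosome 6, 108986437 to 109094819, minus strand), best known as a p53 target, changed least of the sestrins. Its levels were 52.0, 55.1 and 56.6 CPM in shNEDD9 and 46.0, 40.7 and 48.2 CPM in shNTC. The groups did not overlap, but the gap between the nearest libraries, at 52.0 and 48.2 CPM, was about as large as the SD of 3.84 CPM within shNTC. The log2 fold change of 0.26 (SE 0.07) was called (edgeR adjusted p = 0.000286). RefSeq lists 3 start windows for this gene, and counts per gene do not separate their transcripts.

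To compare the paralogs with each other, counts were divided by the union of annotated exon lengths and scaled to the library (TPM). SESN3 held most of the summed sestrin level in either group, but its share was 52.7 ± 0.72% in shNEDD9 and 86.5 ± 0.78% in shNTC (SD, n = 3 each). The share of SESN2 was 35.4%, 34.0% and 35.8% in the shNEDD9 libraries and 3.11%, 3.09% and 3.12% in the shNTC libraries. SESN1 held 12.2 ± 0.34% in shNEDD9 and 10.4 ± 0.76% in shNTC. None of the 3 shares overlapped between the groups, and each (n = 3 libraries a group) gave a two-sided exact permutation p of 0.1, the smallest that 3 against 3 libraries allow. The summed level hardly differed, at 339, 343 and 359 TPM in shNEDD9 and 345, 326 and 333 TPM in shNTC. These groups overlapped, and the means differed by 3.67%, or by -0.87% when the longest transcript served as length, so the sign rested on the length used.

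**Figure D3:**
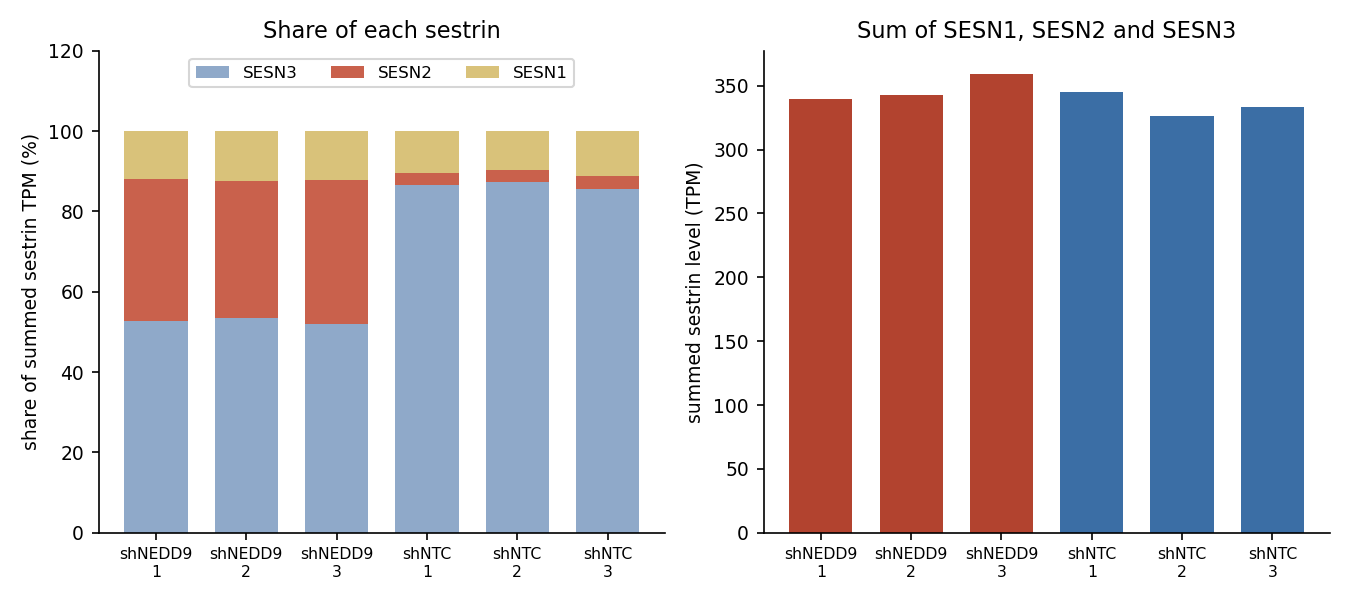
Left, share of SESN3, SESN2 and SESN1 in the summed sestrin TPM (percent) in each of the 6 libraries; right, the summed level in TPM. The SESN2 share is 34.0% or more in shNEDD9 libraries and at most 3.12% in shNTC libraries, while the sums overlap.

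Ratios of counts within a library gave the same contrast without any scaling between libraries. The log2 ratio of SESN2 over SESN3 was -2.20 ± 0.06 in shNEDD9 and -6.41 ± 0.02 in shNTC, a difference of 4.21, or 18.5-fold. That of SESN2 over SESN1 was 0.95 ± 0.07 in shNEDD9 and -2.31 ± 0.10 in shNTC. SESN3 over SESN1 was lower in shNEDD9, at 3.16 ± 0.03 against 4.10 ± 0.12 in shNTC. In each of these 3 ratios every shNEDD9 library lay on one side of every shNTC library (n = 3 each, two-sided exact permutation p = 0.1, 0.12 after adjustment over the 6 ratios computed, which is not under 0.05).

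DDIT4 (ENSG00000168209, chromosome 10, 72273920 to 72276036, plus strand), also called REDD1, activates the TSC complex under hypoxia, glucocorticoids and other stress. It had 119, 119 and 128 CPM in shNEDD9 and 14.3, 15.0 and 16.7 CPM in shNTC. No shNTC library came near the shNEDD9 values. The log2 fold change was 2.99 (SE 0.08, edgeR adjusted p below 1e-300). The annotated antisense gene DDIT4-AS1 overlaps 41.2% of its exon bases and had 0 counts in all 6 libraries.

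The promoters of the 2 genes with the largest increases and that of RRAGC, which alone among the windows searched held an E-box, are shown as the 250 bases before the RefSeq start (GRCh38.p14), in the direction of transcription. Capitals mark matches on either strand to CCAAT (read ATTGG on the other strand), to the E-box CACGTG or to the hypoxia response core ACGTG, which lies within the E-box too. The windows are chr1:28259268-28259517 on the plus strand for SESN2, chr10:72273674-72273923 on the plus strand for DDIT4 and chr1:38859773-38860022 on the minus strand for RRAGC.
SESN2: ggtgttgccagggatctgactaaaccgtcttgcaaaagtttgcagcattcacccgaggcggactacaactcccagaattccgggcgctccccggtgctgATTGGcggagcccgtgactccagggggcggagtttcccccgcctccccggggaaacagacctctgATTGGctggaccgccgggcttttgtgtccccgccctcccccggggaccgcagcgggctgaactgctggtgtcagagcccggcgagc
DDIT4: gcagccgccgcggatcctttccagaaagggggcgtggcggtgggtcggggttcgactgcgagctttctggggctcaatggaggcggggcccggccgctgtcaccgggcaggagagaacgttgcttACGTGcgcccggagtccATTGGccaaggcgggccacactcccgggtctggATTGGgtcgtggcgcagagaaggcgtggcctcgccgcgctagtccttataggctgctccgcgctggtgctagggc
RRAGC: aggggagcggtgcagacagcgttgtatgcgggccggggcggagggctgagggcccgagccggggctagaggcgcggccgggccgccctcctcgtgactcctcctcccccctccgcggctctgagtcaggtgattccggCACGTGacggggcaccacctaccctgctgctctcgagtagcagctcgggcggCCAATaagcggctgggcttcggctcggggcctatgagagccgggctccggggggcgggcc
SESN2 and DDIT4 each held 2 CCAAT matches on the minus strand, and 9.53% of 35116 such windows in the RefSeq table held at least 2. The hypoxia response core occurred in the DDIT4 and RRAGC windows and in 18.5% of all windows, and the E-box, which TFEB, TFE3, MYC and other factors can bind, in the RRAGC window and in 6.34% of all windows. Neither the forkhead core GTAAACA (2.98% of all windows) nor TTGCATCA, a joint C/EBP and ATF4 core (0.772%), matched in any of the 10 windows found for 8 of the 10 genes. CCAAT also matched in windows of SESN1 and CASTOR1 and in 32% of all windows. RRAGD and DEPTOR have no window here. A match only says that these letters are present.

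TSC1 (ENSG00000165699, chromosome 9, 132891348 to 132946874, minus strand), the hamartin subunit that stabilises TSC2, had the smallest of the 5 decreases. It had 49.2, 56.7 and 58.3 CPM in shNEDD9 and 67.4, 62.3 and 66.5 CPM in shNTC, and the lowest shNEDD9 library stood apart from the other two. The log2 fold change was -0.25 (SE 0.06, edgeR adjusted p = 0.000112). Its partner TSC2, the subunit that acts on RHEB, fell by more, with a log2 fold change of -0.50 (SE 0.06, edgeR adjusted p = 7.3e-17). The log2 ratio of TSC1 over TSC2 was -0.12 ± 0.12 in shNEDD9 and -0.35 ± 0.06 in shNTC, a difference of 0.23 (n = 3 each, two-sided exact permutation p = 0.1, 0.12 adjusted), and it was 0.08 after all libraries were thinned to the smallest total.

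DEPTOR (ENSG00000155792, chromosome 8, 119873717 to 120050913, plus strand), the inhibitor of mTOR, had 46.8, 45.9 and 50.2 CPM in shNEDD9 and 27.5, 27.6 and 24.2 CPM in shNTC. The groups were well apart, and the log2 fold change was 0.87 (SE 0.08, edgeR adjusted p = 3.42e-25). DDIT4 rose more than DEPTOR, with a log2 ratio of 1.36 ± 0.01 in shNEDD9 and -0.78 ± 0.22 in shNTC (n = 3 each, two-sided exact permutation p = 0.1, 0.12 adjusted). Of the 10 tested genes nearest to DEPTOR on the chromosome, 5 on either side, 8 rose and 1 fell. Over all tested genes, 35.5% rose and 35.9% fell. The median log2 fold change of these neighbours was 0.91, close to that of DEPTOR, but they ranged widely, from -2.34 to 2.76. A shift of the region as a whole was not tested.

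The corresponding neighbours of the other tested members had medians between -0.01 (RRAGD) and 0.22 (SESN3). SESN2 and DDIT4 lay above the highest of their 10 neighbours, which reached 1.56 and 1.54, and FLCN and SESN3 below the lowest of theirs, at -0.35 and -0.48. The tested gene just before SESN2, listed as AL353622, was called lower (log2 fold change -0.79, edgeR adjusted p = 0.0314). The next tested gene after SESN2, MED18, had a log2 fold change of -0.18 and was not called. Those beside DDIT4, ANAPC16 and DNAJB12, were both called, with small log2 fold changes of 0.18 and -0.17.

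**Figure D4:**
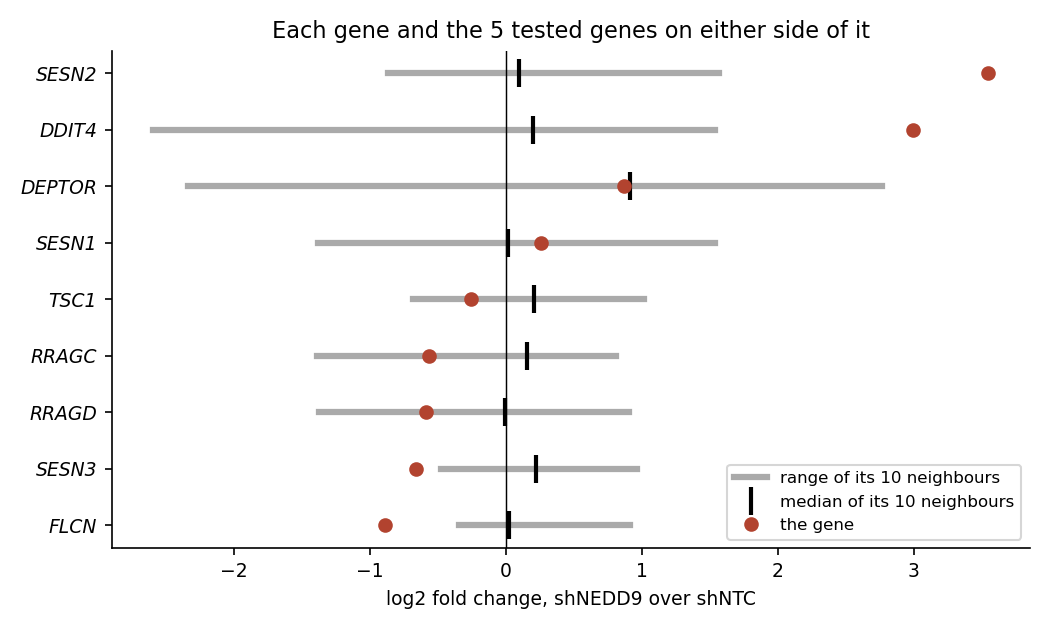
Log2 fold change of shNEDD9 over shNTC (horizontal axis) of each tested gene (red) with the median (black tick) and range (grey) of the 5 tested genes on either side of it. DEPTOR lies close to the median of its neighbours, whereas SESN2, DDIT4, SESN3 and FLCN lie outside their range.

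The Rag GTPases of the set fell together with FLCN. RRAGC (ENSG00000116954, chromosome 1, 38838198 to 38859823, minus strand), which pairs with RRAGA or RRAGB in the active dimer, had 21.2, 18.1 and 16.7 CPM in shNEDD9 and 29.2, 27.6 and 24.6 CPM in shNTC. Within shNEDD9 it was the most scattered of the tested members, with a coefficient of variation of 12.5%, yet the groups did not overlap (log2 fold change -0.57, SE 0.10, edgeR adjusted p = 5.15e-08). RRAGD (ENSG00000025039, chromosome 6, 89364636 to 89412270, minus strand), the alternative partner, had 40.8, 44.2 and 44.5 CPM in shNEDD9 and 68.5, 56.4 and 66.5 CPM in shNTC. Replicate 2 of shNTC was the lowest of its group and still above all shNEDD9 libraries (log2 fold change -0.59, SE 0.07, edgeR adjusted p = 6.29e-18). The balance of the pair was not shown to differ: the log2 ratio of RRAGD over RRAGC was 1.22 ± 0.25 in shNEDD9 and 1.23 ± 0.20 in shNTC (n = 3 each, two-sided exact permutation p = 0.9, 0.9 adjusted). The difference of -0.02 ranged from -0.17 to 0.12 when a library was left out or a setting changed. The smallest p that this permutation test allows with 3 libraries a group is 0.1. It could therefore not call a change of balance of any size at 0.05.

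FLCN (ENSG00000154803, chromosome 17, 17212212 to 17237188, minus strand), the folliculin gene, fell the most of the 9 tested genes. It had 31.6, 32.5 and 29.6 CPM in shNEDD9 and 56.8, 53.6 and 60.1 CPM in shNTC. The highest shNEDD9 library was well under the lowest shNTC library, and the log2 fold change was -0.89 (SE 0.07, edgeR adjusted p = 8.86e-32). Genes annotated on the same strand share 11.9% of the exon bases of FLCN and 22.9% of those of RRAGC, and reads there may not have been assigned.

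CASTOR1 (ENSG00000239282, chromosome 22, 30285117 to 30289627, minus strand), the arginine sensor, was too low to test. It had 1, 5 and 3 counts in shNEDD9 and 5, 5 and 6 counts in shNTC, and a count of 3 was taken as the floor of detection. The ratio of shNEDD9 over shNTC was 0.41 from the summed 9 and 16 counts, with a 95% exact interval of 0.16 to 0.98 that covers counting error only. With no count filter its log2 fold change was -1.25 (SE 0.65, edgeR adjusted p = 0.116). A gene on the same strand shares 46.0% of its exon bases, so its reads may be undercounted.

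Per length, the order of the 10 genes differed between the groups. In shNEDD9 the highest was DDIT4 at 235 ± 9.01 TPM, followed by SESN3 at 183, SESN2 at 122, DEPTOR at 72.2, SESN1 at 42.4 and RRAGD at 33.9 TPM, and no neighbours in this order overlapped. RRAGC, FLCN and TSC1 followed at 14.4, 12.7 and 12.4 TPM with overlapping libraries, and CASTOR1 came last at 0.53 TPM. In shNTC the order was SESN3 at 289.6 ± 7.82 TPM, RRAGD at 50.1, DEPTOR at 40.1, SESN1 at 35.0, DDIT4 at 29.7, FLCN at 23.1, RRAGC at 20.9, TSC1 at 14.8, SESN2 at 10.4 and CASTOR1 at 1.53 TPM. There the libraries of DEPTOR and SESN1, of SESN1 and DDIT4, and of FLCN and RRAGC overlapped. SESN2 thus stood in place 3 of 10 in shNEDD9 and in place 9 of 10 in shNTC. The length matters for genes with many annotated exons, and parts of this order depend on it. With the longest transcript FLCN stood at 24.7 TPM in shNEDD9, above RRAGC at 19.7 TPM. In shNTC FLCN then stood at 46.0 TPM, above RRAGD at 38.4 TPM, and DDIT4 at 25.9 TPM, below RRAGC at 29.3 TPM. SESN2 kept its place in either group.

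The wider pathway was read from 8 lists with 64 further genes, of which 63 were tested. In all, 25 rose, 20 fell and 18 were not called, so that 71.4% were called, the share of all tested genes, and the median log2 fold change was -0.03. The direction counts of each list below stand against 35.5% of all tested genes higher and 35.9% lower. The lists are short and were chosen with earlier results of these data known, and differences between them were not tested. DDIT4L, a paralog of DDIT4, was not tested at 26 counts.

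Of 10 genes of the mTOR complexes and their assembly, 7 rose and 1 fell (median log2 fold change 0.27). MLST8, a subunit of both mTOR complexes, rose by 0.81 on the log2 scale (SE 0.06), and TTI1 and TELO2, which help assemble the kinase, by 0.58 and 0.38. MAPKAP1, which encodes the mTORC2 subunit SIN1, fell by 0.49 on the log2 scale (SE 0.05). The kinase gene MTOR itself had 202 ± 2.58 CPM in shNEDD9 and 173 ± 8.66 CPM in shNTC and rose by 0.21 on the log2 scale.

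The GATOR complexes sit between the sestrins and the Rag GTPases. Of 7 genes of GATOR1, the GTPase-activating complex for RRAGA and RRAGB, and of its anchor KICSTOR, 4 rose and 1 fell (median 0.48), among them KICS2, listed as C12orf66 (log2 fold change 0.74, SE 0.14), NPRL3 (0.69, SE 0.07) and ITFG2 (0.64, SE 0.07). Of 5 genes of GATOR2, which sestrins and CASTOR1 bind, 3 rose and 1 fell (median 0.22). SEH1L rose by 0.57 on the log2 scale (SE 0.06), MIOS by 0.22 (SE 0.04) and WDR24 by 0.31 (SE 0.09, edgeR adjusted p = 0.00115, but 0.0564 without shNTC replicate 3 and 0.108 after thinning). The decrease of SEC13 (log2 fold change -0.10, edgeR adjusted p = 0.0494) held in only 2 of 16 alternatives, with an adjusted p of 0.025 to 0.46.

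Of 10 genes of the Rag GTPases, the Ragulator scaffold and the partners of FLCN, 6 fell, 0 rose and 4 were not called (median log2 fold change -0.21), where 35.9% of all tested genes were lower and 35.5% higher. Among those not called, SLC38A9, a lysosomal arginine sensor, had a log2 fold change of 0.28. RRAGB stood at 3.73 ± 0.81 CPM in shNEDD9 and 7.07 ± 0.64 CPM in shNTC (log2 fold change -0.89, SE 0.21). LAMTOR3, a Ragulator subunit, stood at 31.8 ± 2.20 CPM in shNEDD9 and 57.2 ± 5.83 CPM in shNTC (log2 fold change -0.88, SE 0.07). FNIP2, which binds FLCN, fell by 0.66 on the log2 scale (SE 0.05). Of the other Ragulator subunit genes, LAMTOR5 fell (log2 fold change -0.17, edgeR adjusted p = 0.00729), and LAMTOR1, LAMTOR2 and LAMTOR4 were not called, with log2 fold changes of -0.04, -0.05 and -0.11.

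Of 4 other amino acid sensor genes, 3 fell and 1 rose. CASTOR2, the paralog of CASTOR1, had a log2 fold change of -1.10 (SE 0.20, edgeR adjusted p = 8.42e-08), which was -0.48 and not called after thinning (edgeR adjusted p = 0.285), and near-identical copies in the genome make its counts uncertain. SAMTOR, listed as BMT2, a sensor of S-adenosylmethionine, and SAR1B fell, with log2 fold changes of -0.73 (SE 0.14) and -0.31 (SE 0.06). LARS1, listed as LARS, the leucyl-tRNA synthetase gene, rose by 0.41 on the log2 scale (SE 0.05).

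On the growth factor and energy side, 2 of 4 tested genes of the TSC and RHEB branch rose and TSC2 alone fell. The log2 fold change of 2.59 for RHEBL1, a RHEB paralog, rested on 68 counts over all 6 libraries and a mean of 0.39 CPM in shNTC, near the floor of detection. RHEB, the GTPase that activates mTORC1, stood at 65.2 ± 0.76 CPM in shNEDD9 and 67.4 ± 1.97 CPM in shNTC and was not called (edgeR adjusted p = 0.599). TBC1D7, the third TSC subunit, was higher with a log2 fold change of 0.54 (SE 0.21, edgeR adjusted p = 0.0137), but the call was lost in 4 of 16 alternatives, without shNEDD9 replicate 1 or shNTC replicate 1 among them (adjusted p up to 0.352). Of 13 upstream kinase genes, 2 rose and 6 fell (median -0.19). PRKAA1 and PRKAA2, the catalytic subunits of the energy sensor AMPK, went opposite ways, with log2 fold changes of -0.53 (SE 0.04) and 0.69 (SE 0.11). PRKAG2, a regulatory AMPK subunit, fell by 0.79 on the log2 scale (SE 0.10), CAB39 by 0.49 (SE 0.04), and AKT2 rose by 0.13 (SE 0.03).

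Downstream of mTORC1, 6 of 10 genes rose and 1 fell (median 0.25). EIF4EBP1, which encodes a translation repressor that mTORC1 inactivates, stood at 227 ± 0.79 CPM in shNEDD9 and 43.6 ± 0.66 CPM in shNTC (log2 fold change 2.37, SE 0.05, edgeR adjusted p below 1e-300). Its paralog EIF4EBP2 stood at 188 ± 5.64 CPM in shNEDD9 and 191 ± 5.91 CPM in shNTC and was not called (edgeR adjusted p = 0.517). RPS6, a ribosomal protein gene, rose by 0.73 on the log2 scale (SE 0.02) and PDCD4, a translation inhibitor gene, by 0.35 (SE 0.04), while ULK1, the kinase gene that starts autophagy, fell by 0.83 (SE 0.05). Phosphorylation of these proteins, which reports mTORC1 activity, was not measured, and transcript levels do not give it.

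**Figure D5:**
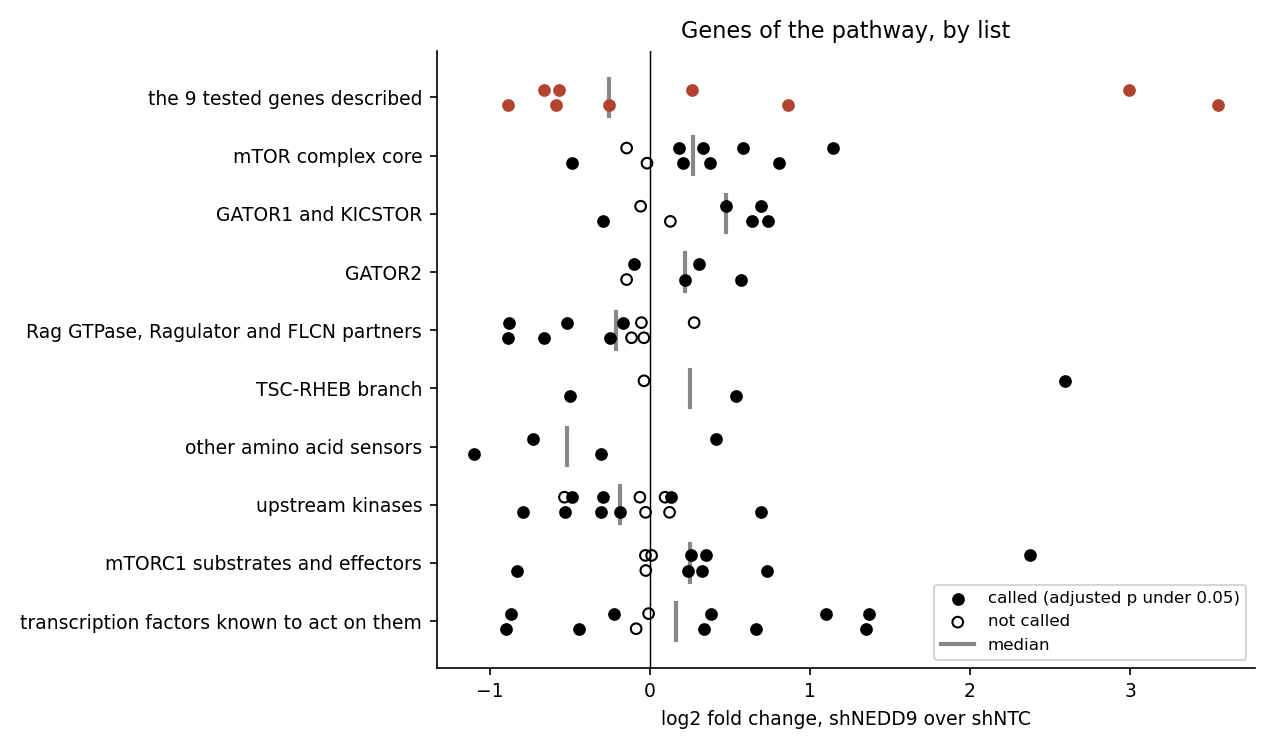
Log2 fold change of shNEDD9 over shNTC (horizontal axis) of each tested gene, in rows by list below the 9 members (red), with filled points for called genes, open points for genes not called and a grey tick for the median. The row of Rag GTPases, Ragulator and FLCN partners has no filled point above 0, and EIF4EBP1 stands alone at 2.37 among the substrates.

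Of 12 genes of transcription factors known to act on members of the set, 6 rose and 4 fell (median 0.17). ATF4, which is known to activate SESN2 and DDIT4 when amino acids are short or the endoplasmic reticulum is stressed, had 495 ± 6.09 CPM in shNEDD9 and 192 ± 8.34 CPM in shNTC (log2 fold change 1.35, SE 0.03). DDIT3, its partner and target, rose by 1.37 on the log2 scale (SE 0.07), and NR3C1, the glucocorticoid receptor gene, by 1.10 (SE 0.09). TFEB, a regulator of lysosomal genes that is known to act on RRAGD and FLCN, stood at 12.4 ± 1.63 CPM in shNEDD9 and 24.0 ± 1.72 CPM in shNTC (log2 fold change -0.90, SE 0.11), and its relatives TFE3 and MITF were not called (log2 fold change -0.09 and -0.01). NFE2L2, the NRF2 gene, fell too (log2 fold change -0.44, SE 0.05). The call of FOXO4 (log2 fold change -0.23, edgeR adjusted p = 0.0403) was lost in 8 of 16 alternatives and turned round in 1. The part of these factors in the changes of the set was not tested.

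The genes with the profiles nearest to each sestrin were sought among 10944 protein-coding genes averaging 5 CPM or more, by Euclidean distance of log2 CPM over the 6 libraries, centred on shNTC. Nearest to SESN2 were ADM2, ATF3 and SLC6A9, at distances of 0.45, 0.56 and 0.68 and with log2 fold changes of 3.32, 3.22 and 3.25. Among the nearest to SESN3 were CTTNBP2NL and REEP3, at 0.06 each, and nearest to SESN1 were GATD1, YEATS2 and FKBP11, at 0.06 to 0.09. These distances are a description, with no test.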

How the data were processed

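RNA of VCaP cells was measured in 3 shNEDD9 and 3 shNTC libraries, made with a TruSeq stranded kit for total RNA (per the labels' protocols). The authors deposited whole-number counts of reads per gene, not normalised. Per the submitters' processing notes, the tools were STAR 2.5.3a, featureCounts (Subread 1.6.2), cutadapt 1.9 and FastQC 0.11.5, and the builds hg19 and GRCh38 are named with no role. Which annotation and strand setting were used is not given in the sources used here, so reads of antisense partners may be mixed. All 58735 identifiers occur in GENCODE 29 (GRCh38), the source of coordinates and lengths, and 1 row without an identifier was left out.

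Counts were tested with edgeR 4.0.16 in R 4.3.3 (quasi-likelihood, TMM factors 0.992 to 1.01, filterByExpr at a minimum count of 10, no covariate), with Benjamini-Hochberg adjustment over 13958 genes. The procedure was run on simulated counts with the same dispersion for every gene and 50 genes changed at each fold size. It recovered 80% of them at 1.25-fold and 100% at 4-fold, and 8 of 189 calls were false. The changed genes were drawn only from those above a minimum mean count, and a call in either direction counted as recovered. Recovery of genes with low counts was thus not examined. Far fewer genes changed there than were called in these data, so the run does not show the error rate here. The standard error is the unmoderated log2 fold change over the square root of F. Values with p of 0 are given as below 1e-300. CPM divide the deposited counts by the scaled library total, and TPM also by union exon length. A count of 3, the floor, equals 0.303 to 0.932 CPM. Replicates differed by only slightly more than counting noise (chi-square per degree of freedom 1.14 to 1.20). The common coefficient of variation between replicates beyond counting, as edgeR estimated it, was 1.65%. Separate cultures are not stated beyond the word triplicates, so p-values measure the spread between these libraries.

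The members and lists were chosen with earlier results of these data known. From each list up to 3 called genes per direction at a mean of 5 CPM or more were named, and for each sestrin the 3 nearest profiles. MTOR, RHEB, RHEBL1, EIF4EBP2, LAMTOR1, LAMTOR2, LAMTOR4, LAMTOR5, CD14, COL1A2, COL3A1, SLC38A9, TFE3 and MITF were named after their values were seen. Alternatives were other scaling factors (RLE, upper quartile, library totals), count filters, DESeq2 1.42.0, limma-voom (limma 3.58.1), a replicate block, thinning to the smallest total, a table without genes of small or mitochondrial RNA, and leaving out 1 library at a time. Of the marker genes, LUM, LYZ, COL1A1, COL1A2, COL3A1 and CD14 are given with values. Some genes that the naming rule took are not reported here.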

Additional observations from a re-analysis of the deposited data

How the results depend on the processing

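Each of the 9 tested members kept its direction and its call under all 16 alternatives (144 of 144 values), with log2 fold changes of 3.34 to 3.59 for SESN2, 2.85 to 3.07 for DDIT4, 0.80 to 0.92 for DEPTOR, 0.22 to 0.37 for SESN1 and -0.45 to -0.65 for RRAGC. The highest adjusted p among them was 0.032, for RRAGC after thinning to the smallest library. Over all genes, 3530 to 5111 rose and 3587 to 5061 fell. Of the 64 other pathway genes, 16 to 25 rose, with 16 after thinning, where each library held fewer counts, and 17 to 22 fell. Of 751 values for the other 47 named genes, 718 kept direction and call, 32 lost the call, and FOXO4 turned to a log2 fold change of 0.0253 after thinning (-0.23 with all counts); the cause was not tested. The difference in the RRAGD over RRAGC ratio was -0.02 with all libraries, -0.17 after thinning and -0.12 to 0.12 with each library left out, and turned positive without shNEDD9 replicate 1 (0.12) and without shNTC replicate 3 (0.08). The SESN2 share differed by 28.8 to 32.5 percentage points. Same-numbered libraries did not deviate together (correlations of 0.0007 to 0.0134), so the numbers are not shown to pair samples. With the replicate block 4 members rose and 5 fell, as without it. The difference of 4.21 in SESN2 over SESN3 cannot change with the block, because the groups are of equal size. Only its exact permutation p changed, from 0.1 to 0.25. Depth limits CASTOR1, which could be fitted only without the count filter and was not called there.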
